A study of Homo sapiens with 2 samples.

Results

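AP-1 is a family of transcription factors that bind DNA as pairs of basic leucine zipper (bZIP) proteins. Its levels were compared between parental A1847 cells, an ovarian cancer cell line that carries wild type CARM1, and CARM1 KO A1847 cells, in which this arginine methyltransferase gene was targeted by CRISPR. The set was fixed by name, with earlier results of these data known. It held 10 of the 57736 genes in the count table, namely JUN, JUNB, JUND, FOS, FOSB, FOSL1, FOSL2, ATF3, BATF and BATF3. RNA-Seq was available for 1 library of each kind, with 30741953 reads from parental and 32300391 from CARM1 KO cells. The CARM1 KO cells were a single clone made with a lentiviral CRISPR vector, while the control was the parental line, so clone and genotype cannot be told apart. No treatment is named for either. CARM1 itself had 975 reads in the parental and 380 in the CARM1 KO library, a 2.63-fold lower level (95% interval 2.33 to 2.97).

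In an AP-1 pair, the leucine zippers hold the proteins together and the basic regions grip the DNA. JUN proteins can pair with one another or with FOS proteins, whereas FOS proteins need a JUN partner. JUN is a strong activator, JUNB and JUND are often weaker ones, and the smaller FOSL1 (FRA-1) and FOSL2 (FRA-2) lack the activating end found in FOS and FOSB. ATF3, BATF and BATF3 are short bZIP proteins that pair with JUN proteins. JUN with FOS binds the TRE element, whereas pairs with ATF proteins prefer the slightly longer CRE. FOS, FOSB, JUNB and ATF3 are classical immediate-early or stress-induced genes, and AP-1 in carcinoma cells is best known for driving proteases, adhesion genes and cytokines.

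Folds were read in the 18563 genes with at least 10 reads over both libraries, and 9 of the 10 AP-1 members were among them. The JUN family switched its leading member between the libraries, with JUN higher and both of its paralogs lower in CARM1 KO cells. JUN, FOSL2 and BATF3 were more than 3-fold higher, and JUND and JUNB were more than 3-fold lower. That is 3 of 9 members on the higher side, where 12.8% of all genes were, and 2 of 9 on the lower side, where 11.7% of all genes were. With so few members, these shares are given as a description. FOS and FOSB were lower by slightly less than 3-fold, ATF3 lay at the 3-fold limit on the higher side, and FOSL1 was higher by less than that. BATF had 0 reads in both libraries. Folds were scaled by edgeR's TMM factors, and the 95% intervals around them are exact binomial ones, which take in counting error alone. With 1 library per group no difference has a replicate check, and no P value is given. edgeR's exact test was run only as an alternative, at assumed spreads, to see how the counts past 3-fold depend on them. These are bulk libraries, in which fewer cells of a type and less RNA per cell cannot be told apart.

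The 4 members past 3-fold with the most reads and a start-site sequence are shown with that sequence, because the AP-1 family is known for binding its own promoters and these genes moved in opposite directions. Each window runs from 250 bases before to 50 after a RefSeq start (table of GRCh38.p14), and matched GRCh37 exactly at the positions given here. Capitals mark TGACTCA (the TRE), TGACGTCA (the CRE) or TGACATCA (a CRE variant), searched on both strands. The windows are chr1:59249670-59249969 on the minus strand for JUN, chr2:28615475-28615774 on the plus strand for FOSL2, chr19:18392383-18392682 on the minus strand for JUND and chr19:12902050-12902349 on the plus strand for JUNB.
JUN: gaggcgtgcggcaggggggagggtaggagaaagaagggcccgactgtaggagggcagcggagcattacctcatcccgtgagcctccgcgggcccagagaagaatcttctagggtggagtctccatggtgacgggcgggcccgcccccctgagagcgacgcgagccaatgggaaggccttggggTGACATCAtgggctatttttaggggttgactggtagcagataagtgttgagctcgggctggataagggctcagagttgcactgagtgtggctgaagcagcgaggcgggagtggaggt
FOSL2: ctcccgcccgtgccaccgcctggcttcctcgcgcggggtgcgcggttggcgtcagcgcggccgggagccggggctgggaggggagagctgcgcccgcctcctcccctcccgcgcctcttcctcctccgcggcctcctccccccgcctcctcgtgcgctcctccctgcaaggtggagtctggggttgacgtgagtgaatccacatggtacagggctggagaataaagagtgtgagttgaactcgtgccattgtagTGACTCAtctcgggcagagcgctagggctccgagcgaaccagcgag
JUND: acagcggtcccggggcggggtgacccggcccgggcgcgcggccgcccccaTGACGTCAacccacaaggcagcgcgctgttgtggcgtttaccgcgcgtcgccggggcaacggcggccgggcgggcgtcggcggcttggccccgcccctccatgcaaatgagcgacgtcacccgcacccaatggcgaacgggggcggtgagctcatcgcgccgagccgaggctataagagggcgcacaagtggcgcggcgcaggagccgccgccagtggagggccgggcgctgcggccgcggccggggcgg
JUNB: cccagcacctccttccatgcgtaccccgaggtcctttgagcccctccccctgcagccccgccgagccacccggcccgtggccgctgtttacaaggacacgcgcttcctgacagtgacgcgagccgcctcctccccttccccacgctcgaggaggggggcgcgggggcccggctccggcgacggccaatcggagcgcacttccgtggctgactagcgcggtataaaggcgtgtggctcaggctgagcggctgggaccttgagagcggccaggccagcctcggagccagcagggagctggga
The JUN window held the CRE variant, with its first base at position -67 from the start. The FOSL2 window held 1 TRE, just after the start, and the JUND window held 1 CRE, with its first base at position -200. None of these motifs was found in the JUNB window or in those of FOS, FOSB and BATF. For ATF3, 1 of its 2 windows held the CRE variant. FOSL1 and BATF3 have no window here. Of all 35116 windows, 4.95% held a TRE, 1.85% a CRE and 2.61% the CRE variant. A match of letters is a description and not a binding site.

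Markers of the cells' own type and of other cell types were also counted, and several of the sums differed between the libraries. Of 6 fibroblast markers, 6 reached 10 reads in the parental and 1 in the CARM1 KO library, and their summed reads were 31952 and 547. COL1A2 with 16732 and PDGFRA with 14326 reads made up most of the parental sum, against 3 and 2 in the CARM1 KO library. COL1A1 went the other way, with 131 and 537 reads, and made up nearly all of the CARM1 KO sum. Of 6 epithelial markers, 5 had at least 10 reads in each library, with sums of 43468 and 149147, while CDH1 had 3 and 53 reads and KRT19 had 45 and 0. Of 6 ovarian carcinoma markers, 3 reached this in the parental and 2 in the CARM1 KO library, with sums of 536 and 2346. PAX8 had 311 and 1149 reads and MSLN had 201 and 1188. MECOM with 16 and 5 reads and WT1 with 8 and 1 went the other way, and MUC16 and SOX17 had at most 2 reads in either library. Of 6 leukocyte markers, 1 reached it in the parental and 2 in the CARM1 KO library, with sums of 414 and 1673, most of it CD68, while PTPRC had 6 and 0 reads. The 5 endothelial markers analysed summed to 13 and 18 reads. The part of these differences in the AP-1 results was not tested.

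JUN, the founding member, lies at chr1:59242517-59249720 of GRCh37 on the minus strand and has a single exon. JUN was counted 842 times in the parental library and 5134 times in the CARM1 KO library. Thus, JUN was 5.96-fold higher in CARM1 KO cells (95% interval 5.54 to 6.41), the largest fold among the members. JUNB lies at chr19:12902300-12904129 on the plus strand, and JUND at chr19:18390504-18392432 on the minus strand, each with 1 exon. JUNB had 524 and 163 reads, a 3.29-fold lower level (95% interval 2.76 to 3.95). JUND had 952 and 271 reads, which was 3.60-fold lower (95% interval 3.14 to 4.13). The interval of JUND lies wholly beyond 3-fold and that of JUNB does not. JUNB overlaps HOOK2 on the opposite strand, which had 188 and 178 reads, and whether the counting used strand is not stated.

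Among the FOS genes, the pair that lacks the activating end was higher and the other pair was lower. FOSL2 lies at chr2:28615315-28640184 on the plus strand and had 617 reads in the parental and 2374 in the CARM1 KO library. It was 3.76-fold higher (95% interval 3.44 to 4.11). FOSL1 lies at chr11:65659520-65668044 on the minus strand. It had 843 and 1529 reads, a 1.77-fold higher level (95% interval 1.63 to 1.93) that was under 3-fold. FOS lies at chr14:75745529-75748933 on the plus strand and had 116 and 41 reads. FOS was 2.90-fold lower (95% interval 2.01 to 4.24), so its interval spans the 3-fold limit. FOSB lies at chr19:45971253-45978437 on the plus strand and had only 21 and 8 reads. At this depth the 2.69-fold lower level of FOSB has an interval from 1.14 to 7.02. FOSB also overlaps ERCC1 on the opposite strand, a DNA repair gene with 1049 and 967 reads.

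ATF3 and BATF3 were counted from few reads. ATF3, which represses or activates depending on its partner, lies at chr1:212738676-212794119 on the plus strand. It had 30 reads in the parental and 92 in the CARM1 KO library, a 2.995-fold higher level (95% interval 1.96 to 4.69). It passed 3-fold with DESeq2 size factors or upper-quartile scaling in place of TMM. BATF3, best known for its role in dendritic cell development, lies at chr1:212859759-212873182 on the minus strand. BATF3 had 15 and 71 reads, which was 4.62-fold higher (95% interval 2.62 to 8.69). BATF, its paralog at chr14:75988798-76013336, had 0 reads in both libraries, and a count of 0 allows up to 3 reads in each.

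**Figure D1:**
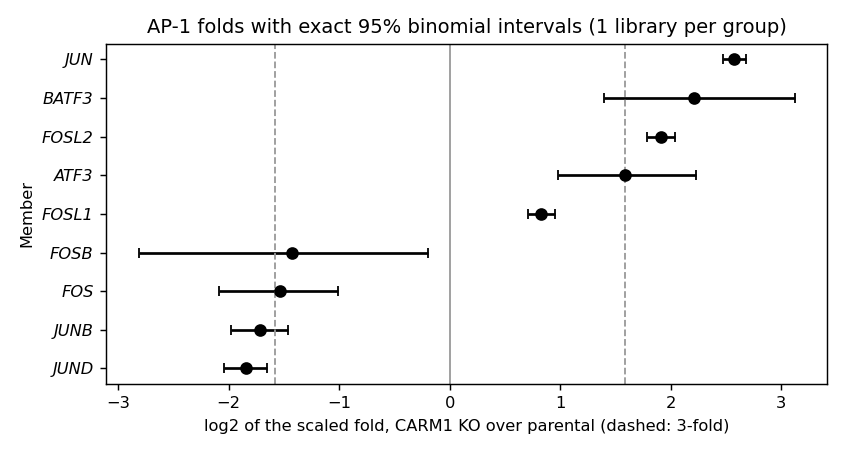
Scaled fold of each AP-1 member in CARM1 KO over parental cells on a log2 axis, for the 9 members with at least 10 reads. Points are folds and bars exact 95% binomial intervals. JUN, BATF3 and FOSL2 lie beyond the dashed 3-fold line on the right, JUNB and JUND beyond that on the left, and ATF3 on the line.

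The median log2 fold change of the 9 members was 0.82, against -0.02 for all genes, and members lay on both sides. No member changed its direction under another scaling.

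Levels can be ordered between genes only per length, as reads scaled by exon length and library size (RPKM), here computed from the union of each gene's annotated exons with exact Poisson intervals. In parental cells JUND led with 16.1 RPKM (95% interval 15.0 to 17.1), closely followed by FOSL1 with 14.5 (13.6 to 15.5). The intervals of these leaders overlap, so their order is not resolved. JUNB followed with 9.31, JUN with 7.56, FOSL2 with 2.80 and FOS with 1.18 RPKM, and with this length each of these intervals was apart from the next. With the length of the longest transcript, JUN had 8.41 against 9.31 RPKM for JUNB, and FOSL1 had 16.11 against 16.05 for JUND. The gap between JUNB and JUN thus depends on the length used. ATF3 with 0.244, BATF3 with 0.190 and FOSB with 0.123 RPKM were at the bottom, and their neighbouring intervals overlap.

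In CARM1 KO cells the order was different. JUN led with 43.9 RPKM (95% interval 42.7 to 45.1), above 94.5% of the protein-coding genes read, whereas in parental cells it was above 67.8% of them. FOSL1 was next with 25.1 RPKM and then FOSL2 with 10.3. JUND had fallen to 4.35 and JUNB to 2.76 RPKM, which is above 57.4% and 48.1% of protein-coding genes, against 82.7% and 72.0% in parental cells. BATF3 with 0.856 and ATF3 with 0.712 RPKM overlap in their intervals and lay above FOS with 0.398. With the length of the longest transcript, ATF3 had 1.35 and BATF3 0.933 RPKM in CARM1 KO cells, so their order depends on the length used.

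**Figure D2:**
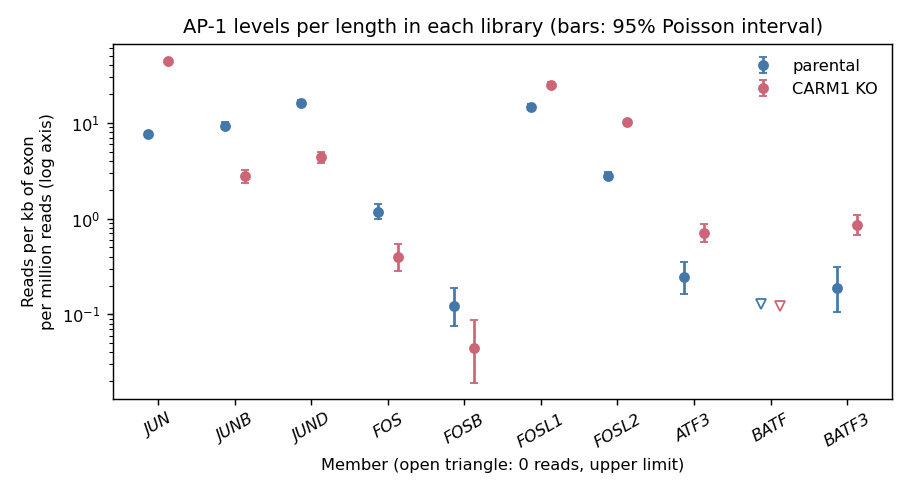
Level of each AP-1 member in RPKM (reads scaled by exon length and library size), on a log axis, in the parental (blue) and CARM1 KO (red) library. Bars are exact 95% Poisson intervals, and open triangles mark the upper limit for BATF at 0 reads. JUN rises from 7.56 to 43.9 while JUND falls from 16.1 to 4.35.

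The make-up of the JUN family shifted accordingly. Per length, JUND made up 48.8% of the summed JUN family level in parental cells, JUNB 28.3% and JUN 23.0%. In CARM1 KO cells JUN made up 86.1%, JUND 8.53% and JUNB 5.41%. Counted as reads without regard to length, JUN was 842 of 2318 family reads in parental cells (36.3%, exact 95% binomial interval 34.4 to 38.3) and 5134 of 5568 in CARM1 KO cells (92.2%, 91.5 to 92.9). These intervals lie far apart, but cover counting error only. The family as a whole was 2.35-fold higher by reads (95% interval 2.23 to 2.46), whereas its summed level per length went from 32.9 to 51.0 RPKM, a smaller difference.

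The FOS family was led by FOSL1 in both libraries. FOSL1 made up 78.0% of the family level per length in parental and 70.1% in CARM1 KO cells, while FOSL2 went from 15.0% to 28.7%. FOS went from 6.35% to 1.11%, and FOSB, with 0.660% in parental cells, was the smallest part in both. FOS family reads numbered 1597 and 3952, 2.42-fold higher by reads (95% interval 2.28 to 2.56), and the summed level per length went from 18.6 to 35.8 RPKM. All 10 members together had 3960 and 9683 reads, which was 2.39-fold higher by reads (95% interval 2.30 to 2.48). A sum of reads gives more weight to long genes. In the JUN and FOS families the summed level per length differed less between the libraries than the reads did. ATF3, BATF and BATF3 made up 0.835% of the summed AP-1 level per length in parental and 1.78% in CARM1 KO cells.

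**Figure D3:**
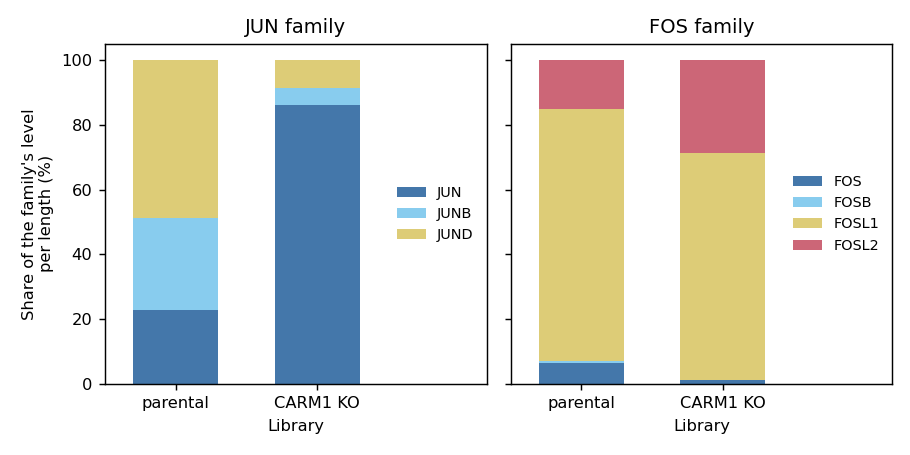
Share of each member in the summed level per length of its family, in percent, for the JUN family (left) and the FOS family (right) in each library. JUN takes 23.0% of the JUN family bar in parental and 86.1% in CARM1 KO cells, and FOSL1 is the largest part of both FOS family bars.

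Several members sit close to one another or in regions whose genes moved together, so each was set beside its neighbours, the nearest 10 protein-coding genes on either side with at least 50 reads. Values in this paragraph are log2 fold changes with a prior count of 2. ATF3 and BATF3 lie in the long arm of chromosome 1, where the flanking genes were mostly lower, with a median of -1.31 for each member. BATF3 at 2.07 was above all 20 of its neighbours, and ATF3 at 1.52 was above all but 1 of its 20, which was BATF3. JUN on the short arm of the same chromosome was at 2.57, its neighbours had a median of 0.64, and 4 of the 20 were above it. FOSL2 at 1.91 had neighbours with a median of -0.50, of which 3 of 20 were above it, whereas FOSL1 at 0.82 lay among neighbours with a median of 0.47. The neighbours of the lower members had medians nearer to 0 than the members. JUNB at -1.71 was below all 20 of its neighbours, whose median was -0.34, and JUND at -1.84 was below 16 of 20, whose median was -0.46. FOS at -1.49 was below 17 of 20 neighbours, whose median was 0.04 but -0.41 with 25 neighbours on either side, and FOSB at -1.23 was below 16 of 20, with a median of -0.61. FOS, BATF and the AP-1 repressor gene JDP2 lie within the same stretch of chromosome 14, and JDP2 was higher, with 353 and 837 reads. DNA copy number was not analysed here, and its part in these values was not tested.

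**Figure D4:**
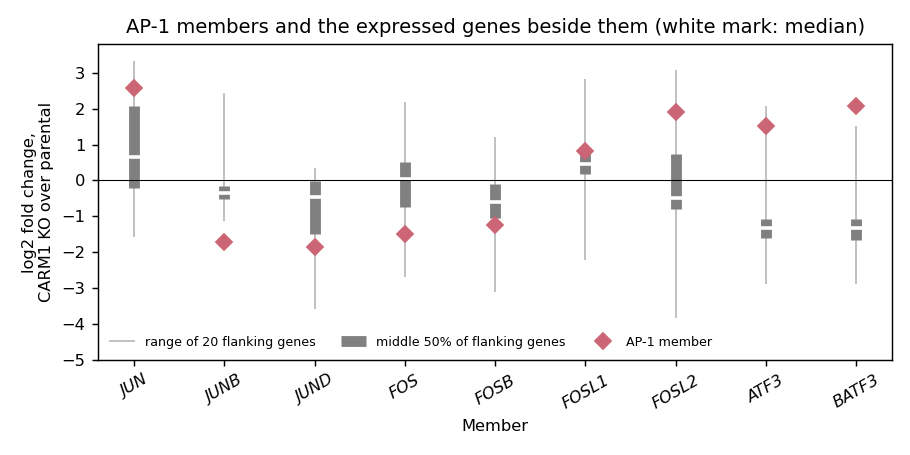
Log2 fold change of each AP-1 member (red diamonds) in CARM1 KO over parental cells beside its 20 flanking expressed protein-coding genes, shown by their range (thin line), middle 50% (thick bar) and median (white mark). BATF3 lies above all of its neighbours and ATF3 above all of its own but BATF3, with medians of -1.31, and JUNB lies below all of its neighbours.

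Other bZIP genes can pair or compete with AP-1 proteins. Of 29 matched, 27 had at least 10 reads, and 2 of these (7.41%, against 12.8% of all genes) were past 3-fold higher and 0 (against 11.7%) lower, with a median log2 fold change of 0.11. The higher ones were CREB5, a CRE-binding relative of ATF2 with 17 and 124 reads, and BACH2, a repressor known from B cells with 7 and 54 reads. CREB5 was 7.12-fold higher (95% interval 4.27 to 12.6) and BACH2 7.53-fold higher (95% interval 3.42 to 19.6). The ubiquitous JUN partner ATF2 had 2450 and 2898 reads, a 1.16-fold higher level, and ATF7 had 318 reads in each library. ATF4, which partners ATF3 in the stress response and induces it, had 8084 and 13304 reads and was 1.61-fold higher (95% interval 1.56 to 1.65). JDP2 was 2.32-fold higher (95% interval 2.04 to 2.63). ATF2, ATF7, ATF4 and JDP2 were chosen after their values were seen.

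Of 26 kinases upstream of AP-1, 2 (7.69%, against 12.8% of all genes) were past 3-fold higher and 4 (15.4%, against 11.7%) were lower, with a median of 0.15 on the log2 scale. These shares are near those of all genes. RPS6KA2, an ERK-activated kinase, had 133 and 0 reads and was at least 45.4-fold lower against the limit of 3 reads. MAP2K6, which activates p38 kinases, had 1437 and 64 reads, a 23.0-fold lower level (95% interval 17.9 to 30.0). MAPK10, the JNK gene typical of neurons, had 85 and 7 reads and was 12.4-fold lower (95% interval 5.78 to 31.9), and the p38 gene MAPK11 was also past 3-fold lower. The p38 gene MAPK13 had 24 and 124 reads and was 5.05-fold higher (95% interval 3.24 to 8.17). MAP3K5, which starts a JNK and p38 cascade, had 129 and 432 reads and was 3.27-fold higher (95% interval 2.68 to 4.01). The main JNK genes, named after their values were seen, were under 3-fold, as MAPK8 had 1398 and 2715 reads and MAPK9 had 1634 and 2041.

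Regulators that turn FOS on, mark JUN for degradation or assist AP-1 on DNA were in 3 short lists, in which 0 genes were past 3-fold, where 12.8% of all genes were higher and 11.7% lower. SRF and its cofactors, which drive FOS from the serum response element, had 0 of 7 genes past 3-fold and a median of -0.40 on the log2 scale. SRF itself had 1702 and 681 reads and was 2.56-fold lower (95% interval 2.34 to 2.80). Of 7 turnover genes 0 were past 3-fold, with a median of 0.04, but FBXW7, which targets JUN for degradation, had 1901 and 938 reads and was 2.08-fold lower (95% interval 1.92 to 2.25). COP1, another ligase for JUN, had 2333 and 1240 reads, a 1.93-fold lower level (95% interval 1.80 to 2.07). ITCH of the same list went the other way, with 5375 and 7226 reads, a 1.31-fold higher level (95% interval 1.27 to 1.36). Of 11 coactivators and corepressors 0 were past 3-fold, with a median of -0.06. The acetyltransferase EP300 had 1336 and 674 reads and was 2.03-fold lower, whereas its paralog CREBBP had 647 and 712 reads. NCOA1, with 1458 and 533 reads, was 2.80-fold lower, and COPS5, with 2508 and 3797 reads, was 1.48-fold higher. SRF, FBXW7, COP1, ITCH, EP300, CREBBP, NCOA1 and COPS5 were chosen after their values were seen.

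Immediate-early genes, like FOS, answer quickly to growth factors. Of 27 genes 25 had at least 10 reads, of which 6 (24.0%, against 12.8% of all genes) were past 3-fold higher and 3 (12.0%, against 11.7%) lower, with a median log2 fold change of 0.43. EGR1, a zinc-finger gene usually induced together with FOS, had 152 and 17 reads and was 9.15-fold lower (95% interval 5.53 to 16.1). ZFP36, which destabilises cytokine mRNAs, had 72 and 18 reads and was 4.10-fold lower (95% interval 2.42 to 7.30), and EGR3, with 11 and 0 reads, was at least 3.75-fold lower. On the higher side, the kinase gene SGK1 had 145 and 901 reads and was 6.07-fold higher (95% interval 5.09 to 7.28). CCN1, a matrix protein and YAP target, went from 1960 to 8436 reads, a 4.20-fold higher level (95% interval 4.002 to 4.42), and KLF6 was 4.06-fold higher (95% interval 3.79 to 4.36). KLF4, GADD45B and DUSP1 were the other higher genes. DUSP1 was only just past the limit at 3.01-fold (95% interval 2.80 to 3.24), and with library size in place of TMM 5 genes of the list were past it.

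Genes of the ATF4 and stress response, to which ATF3 belongs, were mostly under 3-fold. Of 22 genes, 2 (9.09%, against 12.8% of all genes) were past 3-fold higher and 1 (4.55%, against 11.7%) was lower, with a median of 0.30 on the log2 scale. With so few genes past the limit, these shares are given as a description. SLC7A11, the cystine transporter, had 305 and 1906 reads and was 6.10-fold higher (95% interval 5.41 to 6.91). VLDLR, a lipoprotein receptor, had 46 and 228 reads and was 4.84-fold higher (95% interval 3.51 to 6.80). DDIT4, an mTOR inhibitor, fell from 961 to 223 reads, which was 4.41-fold lower (95% interval 3.81 to 5.13).

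Of the AP-1 target genes listed here, more were past 3-fold higher than lower in these libraries. This list, like the others, was chosen with earlier results of these data known, so its shares are given as a description. Of 48 matched genes 44 had at least 10 reads, and 14 of these (31.8%) were past 3-fold higher, where 12.8% of all genes were. On the lower side there were 3 (6.82%), where 11.7% of all genes were. The median log2 fold change was 0.72. With edgeR's exact test at an assumed coefficient of variation of 0.4 added to the limit, fewer of these genes were higher, and no longer more than were lower. Fewer of all genes were higher as well, and these were then outnumbered by the lower ones. These counts depend on the spread assumed, which single libraries do not give. The list includes FOSL1 itself, and many of its genes have other regulators. ITGB4, a hemidesmosome integrin, had 8 and 157 reads and was 19.2-fold higher (95% interval 9.49 to 45.2). LOX, which cross-links collagen, had 52 and 829 reads and was 15.6-fold higher (95% interval 11.8 to 21.0). LAMA3, a basement membrane laminin chain, had 16 and 140 reads and was 8.55-fold higher (95% interval 5.08 to 15.4). Others past 3-fold higher included the collagenase gene MMP1, which is the classical TRE-driven gene, and MMP14, CXCL8, IL6, CD44, AXL and CAV1. MMP3, MMP9 and EREG were also past it but from few reads, with 3 and 11, 2 and 17, and 8 and 27. The 95% interval of MMP3, from 0.946 to 19.99, includes no difference. With a minimum of 50 reads, 11 genes of the list were past 3-fold higher and 3 lower. At that minimum 1649 of all 14527 genes were higher and 1219 lower. MMP1, chosen after its values were seen, had 5364 and 31273 reads, a 5.69-fold higher level (95% interval 5.53 to 5.86).

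The lower target genes had large falls. GJA1, the gap junction protein connexin 43, had 49224 and 1445 reads and was 34.9-fold lower (95% interval 33.1 to 36.8). MMP10, a stromelysin gene in the same cluster as MMP1, had 328 and 10 reads and was 33.6-fold lower (95% interval 18.0 to 70.7). PTGS2, the inducible cyclooxygenase, had 989 and 53 reads, which was 19.1-fold lower (95% interval 14.5 to 25.7). Thus, neighbouring matrix metalloproteinase genes moved in opposite directions. Of the fibroblast markers given above, 5 of 6 were lower and COL1A1 was higher between the same libraries, and their part in these target genes was not tested.

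**Figure D5:**
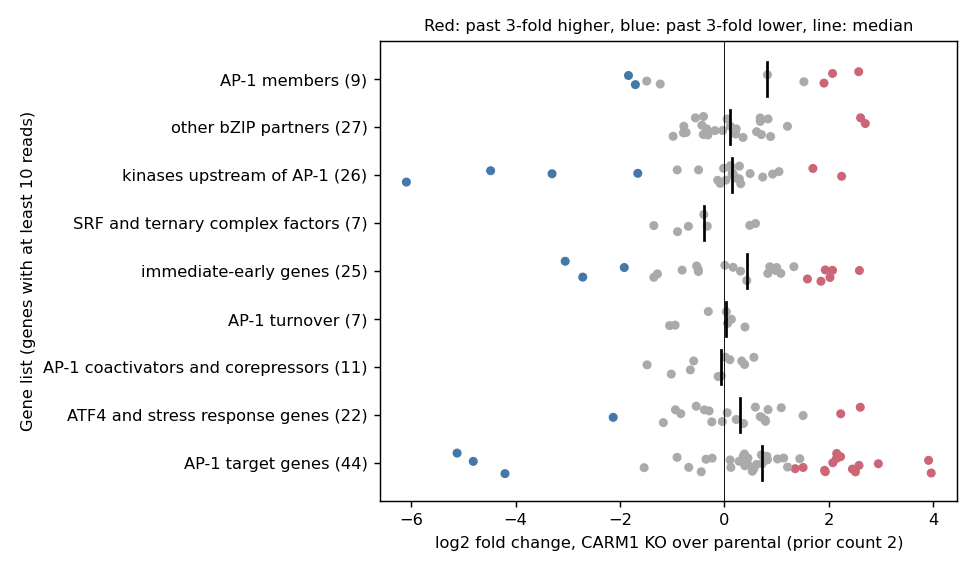
Log2 fold change in CARM1 KO over parental cells for each gene with at least 10 reads in the AP-1 set and the other lists, with the number of genes in brackets. Red points are past 3-fold higher, blue points past 3-fold lower, and black lines are medians, the highest of which are 0.82 for the AP-1 members and 0.72 for the AP-1 target genes.

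Finally, genes were described by the motifs in their start-site windows. A window was found for 12276 of the genes read, of which 12.0% were past 3-fold higher and 9.30% lower. Of the 605 with a TRE, 20.3% were higher and 10.25% lower, and their median log2 fold change was 0.27. Of the 443 with a CRE, 8.58% were higher and 6.55% lower, and of the 275 with the CRE variant, 17.1% and 16.4%. Windows that hold these motifs also differ in base composition and in the kinds of gene they belong to, and no test of these shares was made. A TRE was found for 11 of the 34 target genes that have a window, whether or not they were read. The other target genes, MMP1 among them, either have no window or held no TRE in it. Of these 11, CXCL8 and LAMA3 were past 3-fold higher, and GJA1 was past it on the lower side. PLAUR, IL11, EZR, LAMB3, S100A2 and GSTP1 were under 3-fold, and IVL and SPRR1B had 0 reads in both libraries.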

How the data were processed

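RNA was sequenced from 1 library of parental and 1 library of CARM1 KO A1847 cells. Libraries were made with the ScriptSeq complete Gold kit and read as 75 bp pairs. The authors aligned reads to hg19 with bowtie2, obtained estimated counts per Ensembl gene with RSEM (version 1.2.3 in the submitters' processing notes, while the methods name another) and deposited them as whole numbers without scaling. The Ensembl release and use of strand are not given in the sources used here. RSEM divides reads among genes that share sequence. Totals were 30741953 and 32300391 reads.

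GENCODE v44 on GRCh37 named 55501 of 57736 genes. Older symbols were matched through RefSeq synonyms, and MMP12 and PECAM1 were not analysed here. TMM factors came from edgeR 4.0.16 under R 4.3.3, with DESeq2 1.42.0 size factors as an alternative, and intervals from scipy 1.17.1. Genes with at least 10 reads over both libraries were read against the 3-fold limit of the authors. The authors also required an FDR under 0.05, which the main calls here leave out. edgeR's quasi-likelihood test and DESeq2's test need a spread between replicates, which single libraries do not give, so no P value is given. The steps were tested on simulated data.

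The members and lists were chosen with earlier results of these data known. Named genes are all members, CARM1, and from each list up to 3 rises and 3 falls past 3-fold with at least 50 reads and the largest log2 fold change (prior count of 2). Others were chosen after their values were seen.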

Additional observations from a re-analysis of the deposited data

How the results depend on the processing

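With 1 library per group no library could be left out, and no paired analysis was possible because there was 1 library per group. Counting error limits JUNB, FOS, FOSB, ATF3 and BATF3, whose intervals span 3-fold. The 3 higher members JUN, FOSL2 and BATF3 and the 2 lower members JUNB and JUND were past 3-fold under every scaling and minimum of reads tried, with ATF3 added under DESeq2 size factors and upper-quartile scaling.

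Above 2-fold in place of 3-fold, 4 members were lower, as were 19 genes of the other lists, and 3631 of all genes were higher and 3537 lower. Where the whole interval had to lie beyond 3-fold, 1 member (JUND) was lower and 2 (JUN and FOSL2) were higher, among 1292 higher and 1234 lower genes in all. With edgeR's exact test at an FDR under 0.05 and a set coefficient of variation of 0.4 added to the fold limit, 1 member (JUN) was higher and 0 were lower, 6 genes of the other lists were higher and 7 lower, and 543 of all genes were higher and 888 lower, which follows from the spread assumed. At 0.12 the same members were past both limits as without the test. A minimum of 1 read gave 4915 higher and 5724 lower genes, and a minimum of 50 reads gave 1219 lower genes.

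Of 210 further comparisons of single lists, genes, levels and flanks, 181 stayed within their limits and 29 moved. No member's fold changed direction. With 25 neighbours on either side, the median beside ATF3 and BATF3 was -1.07, that beside FOSL1 was 0.17 and that beside FOS turned from 0.04 to -0.41.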
